A study of Mus musculus with 13 samples.

Results

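The voltage-gated sodium and calcium channel genes were taken as every gene whose symbol in the platform's probe annotation begins with Scn and a digit, or with Cacna, Cacnb or Cacng, counting only probe sets listed with a single symbol. The rule found 35 genes of 18193 and 85 probe sets of 45101, with 1 to 5 probe sets per gene. A gene's reported value is its brightest probe set, the one with the highest mean over all arrays. Expression had been measured on arrays, with a single brain hemisphere from each of 13 males of the mouse strain C3HeB/FeJ. The 6 creatine-fed mice received pellets with 1% creatine for 6 months, and the 7 untreated mice received pellets of equal calories without creatine. All mice were 10 to 12 weeks old when the feeding began, none is labelled with a transgene or a mutation, and the labels call the arrays biological replicates. Setting creatine-fed against untreated mice asks which brain transcripts differ after long creatine feeding.

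Voltage-gated sodium channels open within a fraction of a millisecond of depolarisation and carry the upstroke of the action potential. Voltage-gated calcium channels admit calcium during that spike, and the calcium triggers transmitter release at terminals, shapes firing in cell bodies and dendrites, and signals to the nucleus. Each channel has a pore-forming subunit, called alpha in sodium channels and alpha1 in calcium channels, and smaller subunits that set its gating, its delivery to the membrane and its place in the cell. Creatine is the compound that creatine kinases charge with phosphate to buffer ATP, on which the sodium pump that restores the gradients draws.

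Intensities are linear and in arbitrary units, with medians between 37 and 45 on the 13 arrays, and differences are on the log2(intensity + 16) scale, creatine-fed minus untreated. A probe set was called where limma gave a Benjamini-Hochberg adjusted p under 0.05 over all 45037 probe sets tested. One untreated mouse, replicate 3, stood apart: the summed intensity of 8 cerebellar marker genes was 2463 there, against 9787 to 18234 in the other untreated mice and 5992 to 14135 in the creatine-fed mice. The 8 pan-neuronal markers were all measured and summed to 26688 to 29507 in creatine-fed mice and 27553 to 30822 in untreated mice, so the labelled tissue carried its markers. Several marker lists leaned to 1 side between the diet groups, with no marker gene called. Over all genes at their brightest probe set, 41.5% had a higher mean of log2 values with creatine. All 8 hindbrain and midbrain markers had lower means with creatine and summed to 181 to 305 in creatine-fed mice, against 330 to 546 in untreated mice, without overlap. Of these 8 markers, 5 had means under the median of every array in both groups. The larger part of the sum came from Th, Slc6a5 and Hoxa5. Their means were 80.8, 54.3 and 52.3 in creatine-fed mice and 110, 87.7 and 78.4 in untreated mice. All 7 cortical markers measured, of 8 listed, had higher means with creatine, with sums of 2487 to 2941 in creatine-fed mice and 2042 to 2914 in untreated mice. Of 7 oligodendrocyte markers measured, of 8 listed, 6 had lower means with creatine, with sums of 16564 to 18709 in creatine-fed mice and 18082 to 22533 in untreated mice. All 6 thalamic markers had lower means with creatine, with sums of 1657 to 2553 in creatine-fed mice and 1819 to 3100 in untreated mice. Of 7 astrocyte markers 6 had lower means with creatine, with sums of 11757 to 13147 in creatine-fed mice and 12432 to 15217 in untreated mice. All 5 skeletal and all 4 heart muscle markers had lower means with creatine, and 8 of these 9 had means under the median of every array. Of 6 endothelial and mural markers 5 had lower means with creatine, and of 6 microglial markers 5 had higher ones. No marker of these lists was at 0 on every array. Their part in the channel results below was not tested, except for the cerebellar sum, and in whole hemispheres fewer cells of a type and less RNA per cell cannot be told apart.

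No channel gene was called. Over all probe sets 0.00888% were called, and over all genes at their brightest probe set 0.0055%. The smallest adjusted p among the 35 genes was 0.309 (limma, Benjamini-Hochberg), and among the 85 probe sets it was 0.155. Of the 35 genes, 19 had a higher mean of log2 values in creatine-fed mice and 16 a lower one, a share of 54.3% higher where 41.5% of all genes were higher. That gap nearly closed under quantile normalization, at 48.6% of the channel genes and 46.6% of all genes, and without untreated replicate 2, at 42.9% and 41.4%. The median log2 difference of the channel genes was 0.01, against -0.03 over all genes. At an unadjusted p under 0.05 the same fit counted 4 channel genes of 35, or 11.4%, against 11.2% of all genes. Of these, 3 were higher with creatine (Scn2a, Cacnb1 and Cacng3; background 3.58% of genes) and 1 was lower (Cacna1f; background 7.61%). No channel probe set separated the groups without overlap, as 0.56% of all probe sets did. The 95% interval of the difference lay within -0.5 to 0.5 for 27 of the 35 genes and within -0.25 to 0.25 for 10 of them. The within-group SD of the log2 values had a median of 0.19 for the channel genes, the same as over all genes to this rounding.

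**Figure D1:**
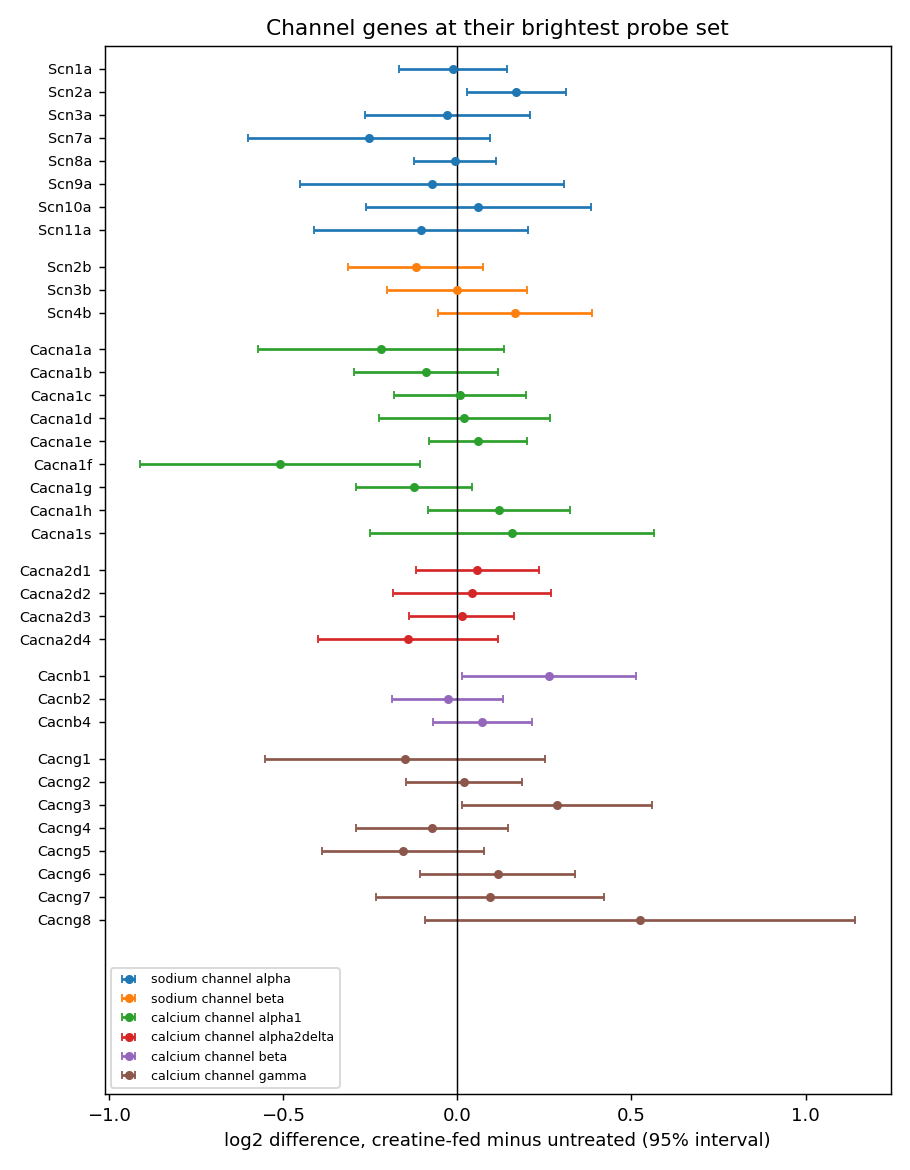
Log2 difference in intensity, creatine-fed minus untreated mice, at the brightest probe set of each of the 35 channel genes. Points are limma estimates from 6 creatine-fed and 7 untreated mice, bars are 95% intervals, and colours mark the subunit families. Intervals of 4 genes (Scn2a, Cacnb1, Cacng3 and Cacna1f) leave out 0 before any adjustment, and none of these 4 has an adjusted p under 0.309.

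Among the 8 sodium channel alpha subunit genes, with 24 probe sets, 2 had a higher mean with creatine and 6 a lower one, with a median log2 difference of -0.02. None was called. Scn2a encodes the sodium channel that starts spikes in the axons of excitatory neurons, most of all early in life. At 1435933_at, its brightest probe set, Scn2a read 2137 at the lowest, 2219 at the median and 2649 at the highest in creatine-fed mice, against 1858, 2065 and 2158 in untreated mice. All 6 values of creatine-fed mice exceeded the untreated mean, and the ranges overlapped only slightly, since 2 creatine-fed mice, at 2137 and 2152, lay below the highest untreated mouse at 2158. The means were 2294 ± 196 in creatine-fed mice and 2035 ± 93.7 in untreated mice (SD, n = 6 and 7), a log2 difference of 0.17 (95% interval 0.03 to 0.31, adjusted p = 0.340 by limma). The highest of the 13 values belonged to creatine replicate 6, without which the difference was 0.13.

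The other 3 probe sets of Scn2a also had higher means with creatine. The log2 difference was 0.13 at 1427280_at, 0.16 at 1427281_at and 0.40 at 1445259_at, and none of these had an unadjusted p under 0.05. At 1427281_at the intensity was 592 ± 70.7 in creatine-fed mice and 526 ± 45.8 in untreated mice, and at 1445259_at it was 92.7 ± 43.2 in creatine-fed mice and 63.7 ± 18.7 in untreated mice. Scn2a was thus 1 of 9 channel genes, of 26 with several probe sets, whose probe sets all had the same sign.

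Upstream sequence is shown for Scn2a and Cacnb1, which had higher means at an unadjusted p under 0.05 and more than 1 annotated start. The windows are the 250 bases before the annotated start in RefSeq (GRCm38.p6), 5′ to 3′ on the gene's strand. Scn2a has 2 such windows, on the plus strand, at chr2:65620519-65620768 and chr2:65668436-65668685. Capitals mark a TATAAA.
Scn2a first window: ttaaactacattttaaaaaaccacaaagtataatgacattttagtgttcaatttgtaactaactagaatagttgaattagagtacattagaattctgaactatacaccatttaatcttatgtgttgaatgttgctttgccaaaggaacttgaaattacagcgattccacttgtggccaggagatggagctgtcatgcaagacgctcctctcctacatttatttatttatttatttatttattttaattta
Scn2a second window: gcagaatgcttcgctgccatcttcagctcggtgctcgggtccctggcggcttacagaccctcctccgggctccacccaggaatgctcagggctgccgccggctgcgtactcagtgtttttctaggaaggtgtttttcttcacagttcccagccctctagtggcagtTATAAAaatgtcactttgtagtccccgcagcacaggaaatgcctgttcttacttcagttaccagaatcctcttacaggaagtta
The first window was 29.6% G and C and held none of the motifs searched, and the second was 53.2% G and C and held 1 TATAAA. The motifs were searched on both strands and were chosen after these sequences had been seen. They were TATAAA, which recruits the basal transcription factors, GGGCGG, the core of the box bound by Sp1, and CACGTG, the E-box. The others were TGACGTCA, the cAMP response element, GGACAGC, a piece of the site of the repressor REST, and a loose MEF2 core. The loose MEF2 core was CTA and TAG spaced by any 4 bases. It is looser than the MEF2 site in the middle but stricter at the ends, so a window without it can still hold a MEF2 site. The E-box, the cAMP response element and the loose MEF2 core cover palindromic sequences, so both strands give the same match there. Windows were found for 27 of the 35 genes, 37 in all.

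TATAAA was present in 2 of the 37 channel windows and in 12.4% of all 32851 windows. GGGCGG was present in 14 channel windows, or 37.8%, and in 32.7% of all windows. GGACAGC was present in 1 channel window and in 5.28% of all windows. CACGTG, TGACGTCA and the loose MEF2 core were in none of the channel windows and in 6.02%, 1.55% and 3.20% of all windows. The median share of G and C was 56% in channel windows and 52.4% in all windows. These matches describe letters and were not tested against the arrays.

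Scn1a encodes the sodium channel on which fast-spiking inhibitory neurons depend most, and its partial loss causes Dravet syndrome in humans. Its probe sets did not give the same picture. At the brightest, 1450121_at, the intensity was 743, 875 and 930 (lowest, median and highest) in creatine-fed mice and 774, 840 and 975 in untreated mice, a log2 difference of -0.01 (95% interval -0.17 to 0.14). The groups overlapped over most of their ranges there. At 1450120_at the intensity was 395, 567 and 613 in creatine-fed mice against 349, 413 and 506 in untreated mice, a log2 difference of 0.35 (adjusted p = 0.260 by limma). At 1441728_at it was 80, 158 and 188 in creatine-fed mice against 26, 85 and 111 in untreated mice, a log2 difference of 0.73 (adjusted p = 0.257 by limma). On both of these, 5 of 6 values of creatine-fed mice exceeded the untreated mean, and the exception was creatine replicate 4, the creatine-fed mouse with the lowest cerebellar marker sum. Without that mouse the log2 difference was 0.44 at 1450120_at and 0.87 at 1441728_at, with the smaller adjusted p at 0.129 (limma).

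Scn8a, the channel of mature axon initial segments and nodes of Ranvier, was among the most precisely measured genes. It read 1596, 1640 and 1798 in creatine-fed mice and 1578, 1680 and 1732 in untreated mice, with means of 1662 ± 75.5 in creatine-fed mice and 1670 ± 52.4 in untreated mice (SD). The log2 difference was -0.01 with a 95% interval of -0.12 to 0.11. Scn3a, a channel mainly of the embryonic brain, averaged 197 ± 27.4 in creatine-fed mice and 202 ± 34.4 in untreated mice, a log2 difference of -0.03. The remaining 4 were dim. Scn7a, a sodium-sensing relative found in the brain's osmosensory organs, averaged 29.0 ± 8.46 in creatine-fed mice and 37.9 ± 13 in untreated mice (log2 difference -0.25, and -0.13 without creatine replicate 1). Scn9a, Scn10a and Scn11a, channels best known from pain-sensing peripheral neurons, had means between 8 and 18.7 in every group, under the median of every array. Scn3a, Scn2a, Scn1a, Scn9a and Scn7a lie in this order in a cluster on chromosome 2 in RefSeq (GRCm38.p6), where only Scn2a and Scn1a had any probe set with an unadjusted p under 0.05.

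The 3 sodium channel beta subunit genes, single-pass proteins with an immunoglobulin fold that tune gating and adhesion, had 6 probe sets, of which 5 had a higher mean of log2 values with creatine, counting the brightest of Scn3b at a difference of 0.00. None was called and none had an unadjusted p under 0.05. Scn4b, whose protein supports the resurgent current of fast-firing neurons, averaged 485 ± 64.2 in creatine-fed mice and 431 ± 61.1 in untreated mice, a log2 difference of 0.17 (95% interval -0.06 to 0.39). In creatine-fed mice Scn4b read 371, 499 and 555 (lowest, median and highest), and in untreated mice 395, 411 and 568. Of the 7 untreated mice 6 lay between 395 and 419, and replicate 7 lay at 568, above every creatine-fed mouse. Scn3b averaged 780 ± 54.3 in creatine-fed mice and 785 ± 113 in untreated mice, a log2 difference of 0.00 (95% interval -0.20 to 0.20). Scn2b averaged 1506 ± 175 in creatine-fed mice and 1635 ± 166 in untreated mice at its brightest probe set (log2 difference -0.12), while its other 2 probe sets had higher means with creatine.

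Of the 9 calcium channel alpha1 genes, with 19 probe sets, 5 had a higher mean with creatine and 4 a lower one, with a median log2 difference of 0.01. None was called. Cacna1f, an L-type channel of retinal photoreceptor terminals, was the only channel gene with a lower mean at an unadjusted p under 0.05, and it was dim. Its values in creatine-fed mice were 16, 18, 5, 13, 17 and 18, against 13, 26, 36, 39, 44, 12 and 29 in untreated mice. All 6 creatine-fed values were under the untreated mean, but 2 untreated mice lay among them, and both group means were under the median of every array. The log2 difference was -0.51 (95% interval -0.91 to -0.11, adjusted p = 0.309 by limma), from means of 14.5 ± 5.01 in creatine-fed mice and 28.4 ± 12.4 in untreated mice. The size depended on the offset, at -0.88 for an offset of 1 and -0.27 for one of 50.

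The alpha1 genes of the main brain currents lay closer together. Cacna1a, the P/Q-type channel of most central synapses and of Purkinje cells, averaged 90.3 ± 24.1 in creatine-fed mice and 107 ± 25.2 in untreated mice (log2 difference -0.22, 95% interval -0.57 to 0.14). The Cacna1a difference was -0.12 without creatine replicate 4, -0.35 without creatine replicate 2 and untreated replicate 3, and -0.026 as the mean of its probe sets. Cacna1b, the N-type presynaptic channel, averaged 470 ± 63.3 in creatine-fed mice and 499 ± 49.0 in untreated mice (-0.09). Cacna1e, the R-type channel, averaged 738 ± 41.6 in creatine-fed mice and 708 ± 50.3 in untreated mice (0.06, 95% interval -0.08 to 0.20). The L-type channels Cacna1c and Cacna1d, which couple activity to gene expression and pacemaking, differed by 0.01 and 0.02, with Cacna1c at 160 ± 20.1 in creatine-fed mice and 159 ± 17.2 in untreated mice. The T-type channels, which open near rest and drive burst firing, lay on opposite sides of 0. Cacna1g averaged 332 ± 25.7 in creatine-fed mice and 364 ± 34.8 in untreated mice (-0.12), and Cacna1h 277 ± 22.0 in creatine-fed mice and 255 ± 37.8 in untreated mice (0.12). Cacna1s, the skeletal muscle channel, was near the bottom of the scale in both groups, at 8.5 ± 8.14 in creatine-fed mice and 5.43 ± 4.86 in untreated mice.

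At other probe sets, Cacna1a and Cacna1b each had a higher mean with creatine at an unadjusted p under 0.05, opposite in sign to the brightest. For Cacna1b, 1436602_x_at averaged 445 ± 43.6 in creatine-fed mice and 379 ± 39.0 in untreated mice (log2 difference 0.22, adjusted p = 0.322 by limma). The suffix of that probe set marks probes that can match other transcripts. For Cacna1a, 1444455_at averaged 12.7 ± 3.98 in creatine-fed mice and 6.86 ± 4.26 in untreated mice (0.33, adjusted p = 0.319 by limma), both under the median of every array.

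The 4 alpha2delta genes encode the extracellular subunits that carry calcium channels to the membrane, and they include Cacna2d1, whose protein binds gabapentin. None was called. Cacna2d1 had the smallest p of any channel probe set, at 1449999_a_at. Its values there were 151, 167, 199, 175, 190 and 191 in creatine-fed mice, against 177, 126, 131, 113, 120, 131 and 126 in untreated mice. A single untreated mouse, replicate 1 at 177, lay within the creatine-fed range, and the other 6 lay at or below 131, under the lowest creatine-fed mouse. The means were 179 ± 17.9 in creatine-fed mice and 132 ± 20.8 in untreated mice, a log2 difference of 0.40 (95% interval 0.20 to 0.60, adjusted p = 0.155 by limma, 0.0797 without untreated replicate 1).

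The other probe sets of Cacna2d1 were divided. The brightest, 1433643_at, read 1057, 1160 and 1332 (lowest, median and highest) in creatine-fed mice and 967, 1095 and 1331 in untreated mice, a log2 difference of 0.06 (95% interval -0.12 to 0.23). The groups overlapped over nearly their whole range there. The difference was 0.018 without creatine replicate 4, 0.024 without untreated replicate 2 and 0.10 without untreated replicate 3, and 0.17 as the mean of the gene's probe sets. At 1441608_at the means were 43.5 ± 16.1 in creatine-fed mice and 27.7 ± 8.65 in untreated mice (0.42, adjusted p = 0.364 by limma), and at 1425861_x_at and 1440397_at the differences were -0.03 and -0.01. Cacna2d3, which serves synapses in the auditory pathway and in pain processing, averaged 778 ± 67.9 in creatine-fed mice and 770 ± 46.0 in untreated mice, a log2 difference of 0.01 (95% interval -0.14 to 0.16). Cacna2d2, the subunit of Purkinje cells that is lost in ducky mice, averaged 379 ± 53.6 in creatine-fed mice and 367 ± 51.4 in untreated mice (0.04). Cacna2d4, a retinal subunit, was dim, at 25.8 ± 4.12 in creatine-fed mice and 30.7 ± 9.21 in untreated mice (-0.14).

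The 3 calcium channel beta genes encode cytoplasmic subunits that bind the linker between the first and second repeats of alpha1 and bring the channel to the surface. Of their 9 probe sets 4 had a higher mean with creatine at an unadjusted p under 0.05, of which 3 belonged to Cacnb1, and none was called. Over all probe sets 4.17% were higher at that p. Cacnb1, the isoform of skeletal muscle that the brain also expresses, read 198, 185, 228, 293, 184 and 284 at 1440940_at in creatine-fed mice, against 163, 177, 223, 192, 174, 196 and 172 in untreated mice. Creatine replicates 4 and 6, at 293 and 284, stood above every untreated mouse together with replicate 3 at 228, and the other 3 creatine-fed mice lay within the untreated range. The log2 difference was 0.26 (95% interval 0.01 to 0.51, adjusted p = 0.393 by limma), from means of 229 ± 49.1 in creatine-fed mice and 185 ± 20.2 in untreated mice. It was 0.19 without creatine replicate 4 and 0.20 without creatine replicate 6.

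Of the other Cacnb1 probe sets, 1426108_s_at averaged 130 ± 37.1 in creatine-fed mice and 93.0 ± 18.3 in untreated mice (log2 difference 0.40, adjusted p = 0.306 by limma). At 1451834_at the means were 60.2 ± 23.2 in creatine-fed mice and 41.0 ± 6.51 in untreated mice (0.38, adjusted p = 0.342 by limma). At 1425777_at they were 133 ± 29.2 in creatine-fed mice and 131 ± 11.1 in untreated mice (-0.00). Markers of skeletal muscle were mostly at background: 4 of 5 had means under the median of every array, and the 5 summed to 128 to 155 in creatine-fed mice and 118 to 430 in untreated mice.

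Cacnb1 has windows before 2 annotated starts on the minus strand, at chr11:98022628-98022877 and chr11:98018373-98018622, with capitals for GGGCGG on either strand (CCGCCC when read on this strand) and for GGACAGC.
Cacnb1 first window: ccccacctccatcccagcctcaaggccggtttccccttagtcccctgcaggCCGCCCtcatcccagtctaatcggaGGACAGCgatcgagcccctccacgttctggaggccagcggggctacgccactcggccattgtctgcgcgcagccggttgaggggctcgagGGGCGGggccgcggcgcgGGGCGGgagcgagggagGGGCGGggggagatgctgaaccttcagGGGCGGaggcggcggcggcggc
Cacnb1 second window: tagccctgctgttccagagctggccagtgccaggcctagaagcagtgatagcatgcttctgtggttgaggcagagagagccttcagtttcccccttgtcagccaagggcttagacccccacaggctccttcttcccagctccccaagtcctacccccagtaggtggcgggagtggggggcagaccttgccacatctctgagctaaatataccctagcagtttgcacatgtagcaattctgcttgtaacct
The first was 73.2% G and C and held 5 GGGCGG and the only GGACAGC of the channel windows. The second was 56% G and C and held none of the motifs searched.

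Cacnb4, the isoform lost in lethargic mice, averaged 1222 ± 85.8 in creatine-fed mice and 1161 ± 66.2 in untreated mice at its brightest probe set (log2 difference 0.07, 95% interval -0.07 to 0.21). At 1452089_at all 6 creatine-fed values exceeded the untreated mean, with 432 ± 34.4 in creatine-fed mice and 366 ± 62.3 in untreated mice (0.24, adjusted p = 0.366 by limma). At the brighter 1428928_at the difference had the opposite sign, with 846 ± 94.9 in creatine-fed mice and 875 ± 45.6 in untreated mice (-0.05). Cacnb2, best known from the heart, averaged 248 ± 24.8 in creatine-fed mice and 253 ± 18.6 in untreated mice (-0.03).

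The 8 gamma genes had 15 probe sets, with 5 genes higher and 3 lower in mean with creatine and a median log2 difference of 0.06. None was called. Most gamma proteins of the brain attach to AMPA receptors, the main excitatory glutamate receptors, and carry them to synapses, while Cacng1 and Cacng6 belong to muscle calcium channels. Cacng3, an auxiliary AMPA receptor subunit of this kind that is prominent in cortex, has a single probe set, 1450520_at. It read 341, 374, 483, 466, 404 and 532 in creatine-fed mice, against 414, 286, 381, 299, 344, 449 and 299 in untreated mice. Of the 6 creatine-fed values 5 exceeded the untreated mean and 3 exceeded every untreated value. The means were 433 ± 72.4 in creatine-fed mice and 353 ± 63.4 in untreated mice, a log2 difference of 0.29 (95% interval 0.01 to 0.56, adjusted p = 0.396 by limma), and 0.23 without creatine replicate 6. Beside this stands the cortical marker sum, which averaged 2741 in creatine-fed mice and 2493 in untreated mice. Its part in the Cacng3 difference was not tested.

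Cacng2, or stargazin, the founding member of the AMPA receptor group, averaged 242 ± 20.7 in creatine-fed mice and 238 ± 22.5 in untreated mice (log2 difference 0.02, 95% interval -0.15 to 0.19). Cacng8, a member of the same group that is enriched in hippocampus, had the widest interval of the 35 genes, with a log2 difference of 0.52 (-0.09 to 1.14). Its values at 1451864_at were 58, 48, 73, 10, 68 and 63 in creatine-fed mice, against 25, 45, 41, 36, 41, 7 and 22 in untreated mice. All creatine-fed mice but replicate 4, at 10, lay above every untreated mouse. Without that mouse, which was singled out after its values were seen, the log2 difference was 0.79 (adjusted p = 0.177 by limma), and without untreated replicate 6, at 7, it was 0.36. It was 0.33 with an offset of 50 and 0.24 as the mean of both probe sets, of which the second, 1459579_at, had a lower mean with creatine. Cacng4 and Cacng5 had lower means, at -0.07 and -0.16, and Cacng7 a higher one at 0.09, with adjusted p of 0.612 or more by limma. Cacng6 averaged 50.8 ± 6.79 in creatine-fed mice and 46.0 ± 8.87 in untreated mice (0.12), and Cacng1 was under the median of every array in both groups. Cacng7, Cacng8 and Cacng6 are neighbours on chromosome 7, and Cacng1, Cacng4 and Cacng5 on chromosome 11, in RefSeq (GRCm38.p6).

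**Figure D2:**
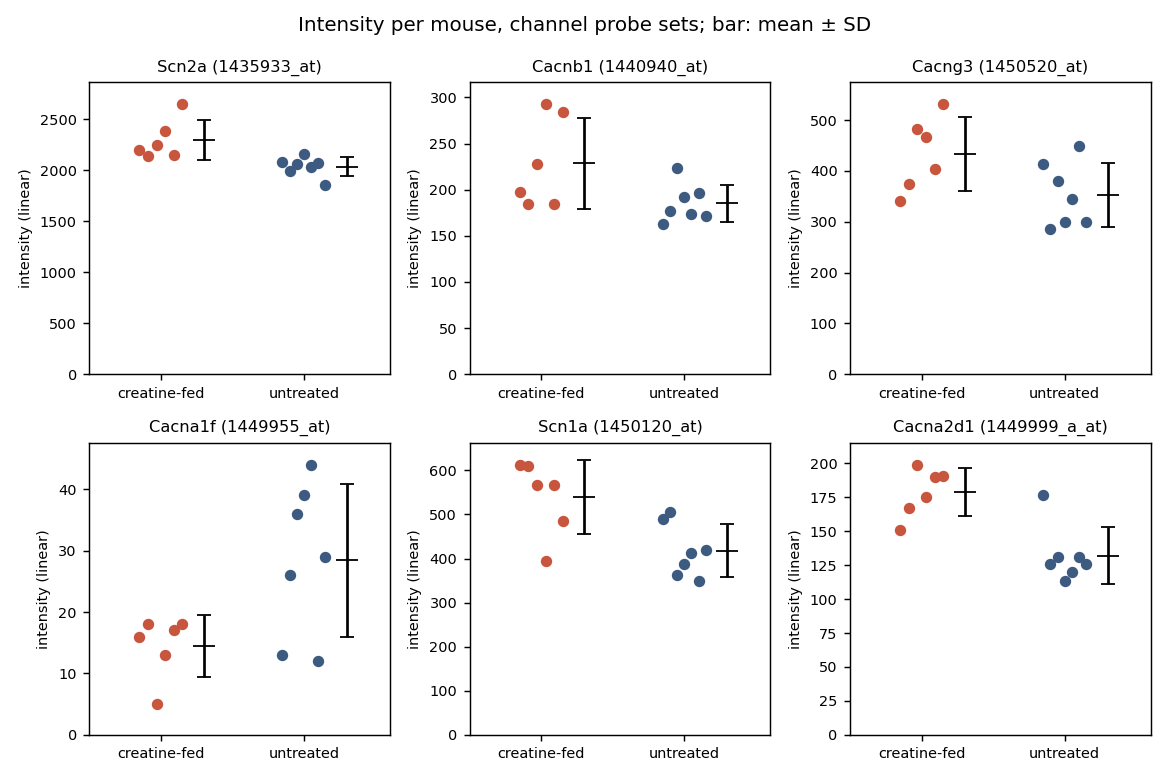
Linear intensity in each mouse for 6 channel probe sets, with creatine-fed mice left of untreated mice and bars for the mean ± SD (n = 6 and 7). The groups overlap in every panel. For Cacna2d1 a single untreated mouse at 177 lies among the creatine-fed mice, and for Cacna1f both groups lie under 45.

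Counted over all probe sets, the channel genes leaned to higher means. At an unadjusted p under 0.05 there were 12 channel probe sets higher with creatine, or 14.1% of 85, against 4.17% of all probe sets. There was 1 lower, or 1.18%, against 7.7% of all probe sets. The 13 probe sets fell in 9 genes, and probe sets of a gene share their target, so they are not independent. Among the 22516 probe sets with the higher means over all arrays, the channel genes had 55 probe sets with 10 higher, or 18.2%, and 0 lower, where 5.89% of all were higher and 8.14% lower. Among the other 22521 probe sets they had 30, with 2 higher and 1 lower, where 2.45% of all were higher and 7.26% lower. At an unadjusted p under 0.01 there were 3 channel probe sets, where 3.71% of all probe sets reached it. Of all 85, 47 had a higher mean of log2 values with creatine, or 55.3%, against 42.2% of all probe sets. With 1 mouse left out at a time, the channel counts ran from 9 to 14 higher and from 1 to 5 lower. The 5 lower came without untreated replicate 3, where 10 channel probe sets were higher, against 3.99% higher and 7.68% lower of all probe sets. The 9 higher came without creatine replicate 3 or 6 or without untreated replicate 5. Under quantile normalization the channel counts were 13 higher and 1 lower, where 5.42% and 5.73% of all were, and with each array centred on its median 16 and 1, where 7.07% and 4% of all were. No channel probe set was called under any of these scalings. For 6 genes (Scn1a, Cacna1a, Cacna1b, Cacna2d1, Cacnb1 and Cacnb4) a probe set other than the brightest had an unadjusted p under 0.05. Of the 26 genes with several probe sets, 17 had probe sets on both sides of 0.

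**Figure D3:**
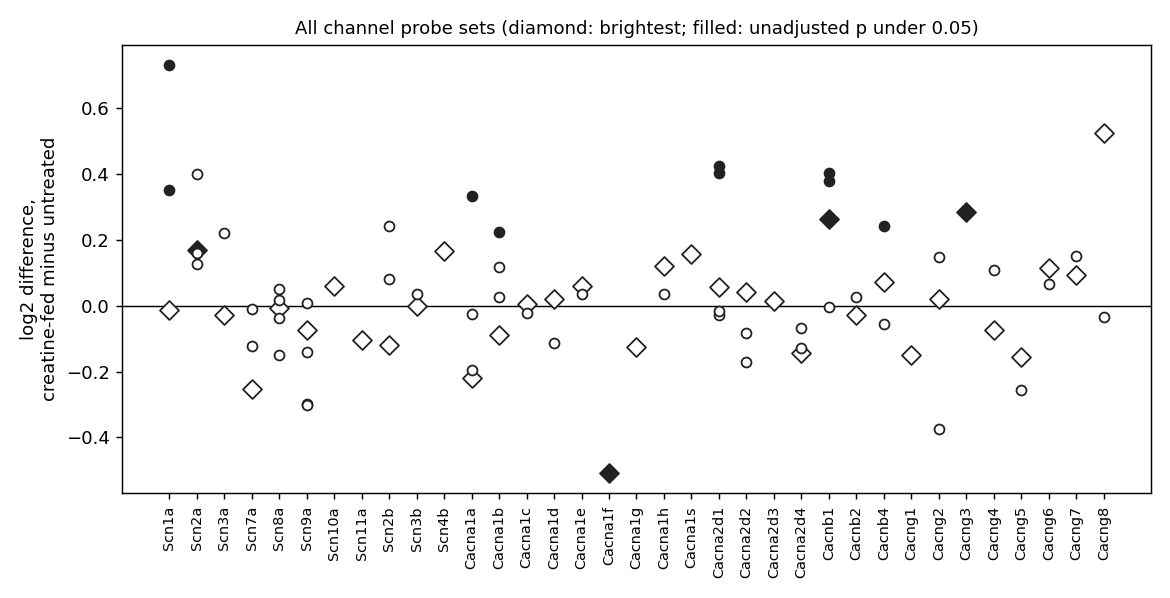
Log2 difference, creatine-fed minus untreated, for each of the 85 channel probe sets, grouped by gene. Diamonds mark the brightest probe set of a gene, circles its others, and filled symbols an unadjusted p under 0.05, which 12 probe sets above 0 and 1 below 0 reach.

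The cerebellar marker sum varied among the mice of both groups, and some channel genes varied with it. This relation was looked for after the data had been seen, over 13 mice and all 35 genes, by 2-sided permutation with 100000 resamples and Benjamini-Hochberg adjustment over the 35. By Pearson's r 7 genes had an adjusted p under 0.05, of which 2 were positive and 5 negative, and by Spearman's rho 2 of these had one, Cacna2d2 and Scn3b. Cacna2d2 had the higher readings where the cerebellar sum was high, with r = 0.83 (permutation p = 0.00024, adjusted 0.0042) and rho = 0.92 (permutation p = 5e-05, adjusted 0.00175). Within creatine-fed mice its r was 0.94 and within untreated mice 0.81, and without the 2 mice farthest from the median sum, untreated replicate 3 and creatine replicate 4, it was 0.85. Scn3b had the lower readings there, with r = -0.87 (permutation p = 0.00023, adjusted 0.0042) and rho = -0.78 (permutation p = 0.00258, adjusted 0.0451). Its r was -0.87 within creatine-fed mice, -0.89 within untreated mice and -0.77 without the same 2 mice.

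For the other 5 genes the rank correlation had an adjusted permutation p above 0.05. Cacna1a, which Purkinje cells express strongly, had r = 0.73 (rho = 0.72, permutation p = 0.00322 and 0.00634, adjusted 0.0192 and 0.0555), with 0.86 within creatine-fed mice, 0.73 within untreated mice and 0.56 without the 2 mice. Cacna1h had r = -0.82 (rho = -0.74, permutation p = 0.00076 and 0.00595, adjusted 0.00665 and 0.0555), with -0.77 within creatine-fed mice, -0.90 within untreated mice and -0.77 without the 2 mice. Cacna2d1 had r = -0.85 (rho = -0.68, permutation p = 0.00037 and 0.0130, adjusted 0.00432 and 0.0730), with -0.68 within creatine-fed mice, -0.97 within untreated mice and -0.62 without the 2 mice. Cacna1c had r = -0.73 (rho = -0.67, permutation p = 0.0033 and 0.0146, adjusted 0.0192 and 0.0730), with -0.78 within creatine-fed mice, -0.74 within untreated mice and -0.55 without the 2 mice. Scn3a had r = -0.71 (rho = -0.52, permutation p = 0.00699 and 0.0697, adjusted 0.035 and 0.174), but -0.18 without the 2 mice, so that relation rests on them. Scn8a had r = -0.16. With the cerebellar sum as a covariate no channel gene or probe set was called, and the smallest adjusted p of a channel probe set was 0.0979 (limma), at 1450120_at of Scn1a.

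**Figure D4:**
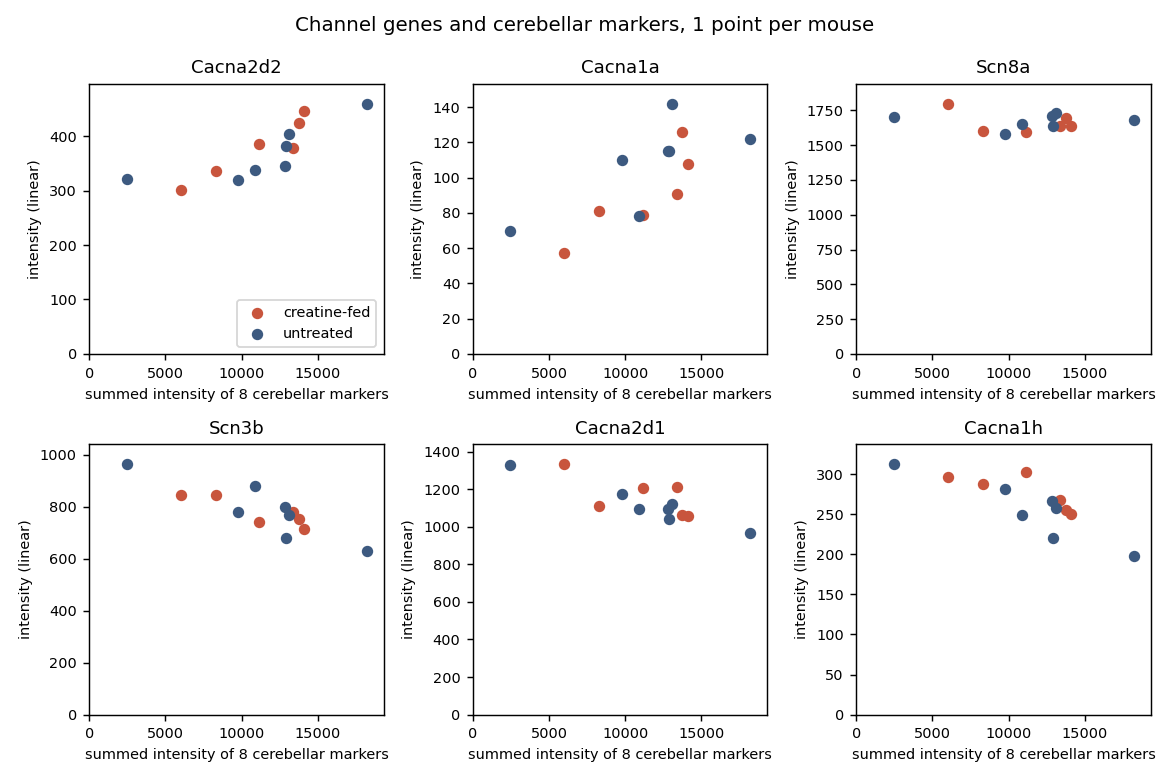
Linear intensity of 6 channel genes against the summed intensity of 8 cerebellar marker genes, 1 point per mouse, creatine-fed mice in red and untreated mice in blue. Cacna2d2 and Cacna1a have higher readings where the sum is high (r = 0.83 and 0.73), Scn3b, Cacna2d1 and Cacna1h lower ones (-0.87, -0.85 and -0.82), and Scn8a follows it little (-0.16). The point at 2463 is untreated replicate 3.

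The proteins that anchor and regulate these channels were examined as lists chosen for their known roles. Of 15 genes of sodium channel partners (ankyrin, spectrin, axonal adhesion molecules, intracellular FGFs and others) 14 were measured, and none was called, with 8 higher and 6 lower means and a median log2 difference of 0.03. At an unadjusted p under 0.05 there were 3 higher and 1 lower, where 3.58% and 7.61% of all genes were. Nrcam, an adhesion molecule of nodes and initial segments, read 1114, 1179 and 1251 (lowest, median and highest) in creatine-fed mice against 938, 986 and 1105 in untreated mice. Its groups did not overlap, as in 0.56% of all probe sets, with a log2 difference of 0.22 (adjusted p = 0.215 by limma). Ank3, the ankyrin that holds sodium channels at the initial segment, averaged 1931 ± 118 in creatine-fed mice and 1707 ± 209 in untreated mice (0.18, adjusted p = 0.403 by limma). Cntnap1, which builds the paranodal junction, averaged 72.7 ± 16.9 in creatine-fed mice and 56.0 ± 8.85 in untreated mice (0.29, adjusted p = 0.359 by limma). Fgf14, an intracellular FGF that binds sodium channels, averaged 417 ± 138 in creatine-fed mice and 573 ± 81.3 in untreated mice (-0.49, adjusted p = 0.302 by limma). As the mean of all probe sets of the gene, the differences were smaller, at 0.067 for Nrcam, 0.043 for Ank3 and -0.16 for Fgf14.

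Of 26 calcium channel partners and modulators (RIM proteins, release proteins, junctophilins, calmodulins and others) 22 were measured, none of them a calmodulin, with 12 higher and 10 lower means, none called, and a median log2 difference of 0.03. At an unadjusted p under 0.05 there were 4 higher and 1 lower, against 3.58% and 7.61% of all genes. Stx1a, the syntaxin that joins N- and P/Q-type channels to the release machinery, averaged 1607 ± 172 in creatine-fed mice and 1322 ± 162 in untreated mice (0.28, adjusted p = 0.257 by limma), with all 6 creatine-fed mice above the untreated mean. Of the 4 junctophilins, which tie surface channels to internal calcium stores, Jph1, Jph3 and Jph4 had higher means with creatine and Jph2 a lower one. Jph1 averaged 165 ± 23.2 in creatine-fed mice and 138 ± 11.7 in untreated mice (0.23, adjusted p = 0.347 by limma), and Jph2, a dim gene, 25.0 ± 9.94 in creatine-fed mice and 42.1 ± 8.32 in untreated mice (-0.53, adjusted p = 0.215 by limma). Jph3 averaged 820 ± 55.1 in creatine-fed mice and 739 ± 55.5 in untreated mice (0.15), and Jph4 984 ± 70.1 in creatine-fed mice and 945 ± 53.7 in untreated mice (0.06). Akap5, a scaffold that places kinases at L-type channels, averaged 242 ± 12.0 in creatine-fed mice and 213 ± 23.5 in untreated mice (0.18, adjusted p = 0.383 by limma). As the mean of all probe sets of the gene, Jph1 differed by 0.14, Akap5 by 0.095 and Jph2 by -0.30. With an offset of 1 Jph2 differed by -0.81, and with an offset of 50 by -0.30.

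Of 14 genes of related cation channels (the sodium leak channel complex, lysosomal, sperm and epithelial sodium channels) 13 were measured, with 6 higher and 7 lower means, none called, and a median log2 difference of -0.02. At an unadjusted p under 0.05 there were 0 higher and 2 lower of the 13, where 3.58% and 7.61% of all genes were. Tpcn2, a lysosomal channel, averaged 27.2 ± 7.99 in creatine-fed mice and 38.6 ± 8.16 in untreated mice (-0.35, adjusted p = 0.310 by limma). Catsper2, a sperm channel subunit, averaged 44.2 ± 10.9 in creatine-fed mice and 56.0 ± 6.88 in untreated mice (-0.27, adjusted p = 0.356 by limma). Fam155a, an auxiliary subunit of the sodium leak channel, differed by 0.12 and Scnn1g, an epithelial sodium channel subunit, by -0.21, with adjusted p of 0.597 and 0.656 by limma. Scnn1g was near the bottom of the scale, with means of 5 in creatine-fed mice and 8.86 in untreated mice. It was among 7 of the 13 genes with means under the median of every array in both groups. Fam155a differed by 0.048 without creatine replicate 6. Scnn1g differed by -0.12 without untreated replicate 5, by -0.53 with an offset of 1 and by -0.091 with an offset of 50, where Tpcn2 differed by -0.20 and Catsper2 by -0.18.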

How the data were processed

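Brain hemisphere RNA of 6 creatine-fed and 7 untreated mice was hybridised to arrays, per the labels from 3 µg of total RNA as biotin-labelled cRNA. The authors deposited 1 linear intensity per probe set and array, in whole numbers. The mean after trimming 2% at each end was 150.05 on all arrays, which fits a global scaling. The submitters' processing notes name RMA, which returns log2 values, so the values contradict it, and the scaling tool was not given in the sources used here, nor was its target.

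No further scaling was applied. Without the 64 control probe sets, log2(intensity + 16) of the other 45037 was fitted with limma 3.58.1 in R 4.3.3 (lmFit and eBayes, 2-sided, no covariates), with Benjamini-Hochberg adjustment over all of them. Symbols came from the platform annotation: 34945 probe sets had 1 symbol, 932 several and 9160 none listed. The members and gene lists were chosen with earlier results of these data known. Genes are given per mouse or by lowest, median and highest value where the brightest probe set had an unadjusted p under 0.05, or where any probe set had one under 0.01 or groups that did not overlap. Scn8a is given by lowest, median and highest value too, outside this rule. Up to 4 genes per partner list with the smallest p are named. Cacng8, Scn4b, Jph3, Jph4 and the probe sets beside the brightest of Cacna1a, Cacna1b and Cacnb4 were named after their values were seen.

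Alternatives were other offsets, quantile normalization, centring, fewer probe sets, trend and robust eBayes, array weights, a replicate block, gene means and leaving out mice. Leaving out a pair of mice and a cerebellar covariate were added after seeing the data. In simulated data of 45037 probe sets 48% of 100 planted log2 changes of 0.5 and 91% of 100 changes of 1 were recovered. Of the calls in the simulated data 5.44% were false. These rates describe the simulated data only. Whether they hold for the measured mice, which also differed in their cerebellar marker sum, was not tested. Precision is limited by how few mice were measured. The upstream sequence of Cacng3 is not reported here. Correlations between arrays ran from 0.975 to 0.987 (Pearson's r of log2 values across probe sets, which are not independent replicates). Plots were made with matplotlib 3.10.9 (Python 3.11.15).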

Additional observations from a re-analysis of the deposited data

Results flagged for a closer look

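In each group the highest or lowest mouse was compared with its nearest neighbour for the 35 channel genes, at the brightest probe set, in 70 groups of mice. Chance alone sets such a mouse apart in about 1 in 20 groups, and 3 were found here. Scn7a was 13 in creatine replicate 1, below the other creatine-fed mice at 29 or more. Scn4b was 568 in untreated replicate 7, above the other untreated mice at 419 or less. Cacna1s was 16 in untreated replicate 6, where the other untreated mice were at 6 or less, near the bottom of the scale.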

How the results depend on the processing

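No channel gene was called under any of the 25 alternatives to the reported fit, and no channel probe set under the 24 that test single probe sets, where the smallest adjusted p was 0.0514 (limma, trend and robust eBayes, Cacna2d1 at 1449999_a_at). The count of channel genes at an unadjusted p under 0.05, 4 as reported, was 2 with array weights, 8 with the mean of all probe sets of a gene (22.9% of the channel genes, against 11.7% of all genes) and 1 without creatine replicate 4 and untreated replicate 3. It ran from 2 to 5 when 1 mouse at a time was left out, at 2 without creatine replicate 3 or 6 and without untreated replicate 2 or 5. The median log2 difference of the channel genes, 0.01 as reported, was 0.058 with arrays centred on their median (0.02 over all genes), -0.01 under quantile normalization (-0.01 over all genes too), and -0.02 to 0.02 without 1 mouse. Scn1a at 1450121_at, -0.01 as reported, was 0.038 with centring, 0.016 with the replicate block, 0.36 as the mean of its probe sets and -0.063 without creatine replicate 2 and untreated replicate 3, and ran from -0.038 to 0.026 without 1 mouse. The cause of these shifts was not tested. Of the 29 channel genes that the naming rule left out, 14 kept their sign in every alternative run and 15 did not. Same-numbered mice of the groups deviated together in 1 of 6 numbers only (correlations of their deviations -0.06 to 0.15). That gives no sign of pairing by number. It cannot exclude pairing, since the arrays also differ in their cerebellar marker sum. As a replicate block the number gave a count of 3, a median of 0.01 and 0 calls. The count over all probe sets, 4 as reported, was 0 with an offset of 1, 36 with an offset of 50, 137 among the 22516 brighter probe sets, 2 with quantile normalization, 161 with trend and robust eBayes, 13 with array weights, 12 with the cerebellar covariate, 0 with the replicate block, 1 with gene means, 0 to 6 without 1 mouse, and 2 or 0 without a pair. Signal over background limits the 7 channel genes whose means in both groups lie under every array median.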
